A study of Mus musculus with 5 samples.

Results

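The collagen genes of the mouse heart were taken as all gene symbols of the heart matrices made of Col, a number, the letter a and a number, which gave 44 of 31053 genes. They were grouped by the assembly their protein is known for, as 11 fibrillar chains, 8 chains of basement membranes and their zone, and 25 other chains. The study set aged beside young C57BL/6 mice to follow immune and heart cells with age. For the heart it has 1 library of non-cardiomyocytes from mice of 18 months and 1 library from mice of 2 months, with no treatment other than age. Hearts were digested with collagenase II and dispase II, and the cells were stained with hashtag antibodies, sorted, combined at different ratios and put through 10x Genomics 3′ chemistry of version 3. The sources used here do not give the number of mice behind a library or what a hashtag stands for, and the cell type label of both libraries reads Lymphocyte, which the markers below do not bear out.

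Collagens are triple helices of 3 chains, often from more than 1 gene, that are hydroxylated in the endoplasmic reticulum, secreted, trimmed and cross-linked. Fibrillar collagens I, III and V make the tensile fibres of the heart's interstitium and are laid down mainly by fibroblasts. Collagen IV forms the sheet-like network of basement membranes around vessels and muscle cells, collagen VI forms beaded filaments that link cells to fibres, and the FACIT collagens decorate the surface of fibrils.

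Promoter windows are shown for members that lead the results: Col1a2 and Col3a1, chains of collagens I and III that were among the members with fewer transcripts at 18 months in fibroblasts, and Col4a1 and Col4a2, a pair transcribed in opposite directions whose fibroblast levels differed little between the libraries. The windows come from RefSeq on GRCm38.p6, run 5′ to 3′ on the gene's own strand from 250 bases before the start to 50 bases after it, and are at chr6:4505368-4505667 (plus strand) for Col1a2, chr1:45311288-45311587 (plus) for Col3a1, chr8:11312777-11313076 (minus) for Col4a1 and chr8:11312555-11312854 (plus) for Col4a2. Capitals mark 3 short motifs on either strand: the box CCAAT (read as ATTGG where it lies on the other strand), the box TATAAA, and the Smad-type motif CAGAC (read as GTCTG where it lies on the other strand).
Col1a2: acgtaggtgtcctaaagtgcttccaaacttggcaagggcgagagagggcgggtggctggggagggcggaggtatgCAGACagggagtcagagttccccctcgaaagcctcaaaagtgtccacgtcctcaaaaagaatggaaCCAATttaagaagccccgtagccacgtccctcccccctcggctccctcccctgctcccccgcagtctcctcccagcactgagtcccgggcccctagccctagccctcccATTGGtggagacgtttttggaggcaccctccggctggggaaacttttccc
Col3a1: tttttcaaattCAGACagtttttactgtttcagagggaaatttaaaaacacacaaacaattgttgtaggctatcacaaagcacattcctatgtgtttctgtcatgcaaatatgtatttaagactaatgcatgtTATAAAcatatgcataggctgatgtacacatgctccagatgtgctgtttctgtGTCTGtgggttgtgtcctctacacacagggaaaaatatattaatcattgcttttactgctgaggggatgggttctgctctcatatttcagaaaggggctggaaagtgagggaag
Col4a1: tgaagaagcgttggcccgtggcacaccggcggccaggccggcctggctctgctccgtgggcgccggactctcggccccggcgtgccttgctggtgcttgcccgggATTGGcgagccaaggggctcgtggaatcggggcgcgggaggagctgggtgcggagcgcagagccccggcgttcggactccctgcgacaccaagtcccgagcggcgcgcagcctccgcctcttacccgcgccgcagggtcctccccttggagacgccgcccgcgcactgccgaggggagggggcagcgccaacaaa
Col4a2: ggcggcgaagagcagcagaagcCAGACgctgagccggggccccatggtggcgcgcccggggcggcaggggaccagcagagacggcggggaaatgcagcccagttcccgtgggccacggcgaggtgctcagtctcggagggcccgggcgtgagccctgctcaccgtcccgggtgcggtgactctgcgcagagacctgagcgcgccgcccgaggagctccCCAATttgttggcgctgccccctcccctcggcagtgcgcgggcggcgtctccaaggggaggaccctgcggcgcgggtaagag
The Col1a2 window held CCAAT 109 bases before the start and again, on the opposite strand, at the first transcribed base, with CAGAC 175 bases before the start. The Col3a1 window held TATAAA 117 bases before the start, CAGAC 239 bases before it and CAGAC on the opposite strand 64 bases before it. The starts of Col4a1 and Col4a2 lay 21 bases apart and their windows shared 78 bases, and each window held CCAAT once, 145 bases before the start of Col4a1 on the opposite strand and 32 bases before that of Col4a2. Motifs of these letters are frequent: CCAAT was in 37.4%, TATAAA in 13.6% and CAGAC in 49.6% of all 32817 windows, and in 13, 5 and 20 of the 38 windows of 35 members. The marked motifs did not overlap each other, and a match is no evidence of a bound site.

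After cells under 200 genes, cells over 15% mitochondrial UMIs and called doublets were left out, 7816 cells remained at 18 months and 10910 at 2 months, with medians of 4371 and 8033 UMIs (unique molecular identifiers, each 1 captured transcript). The libraries differed in make-up, since the leukocyte gene Ptprc was found in 56.9% of 18-month and 31.1% of 2-month cells, and fibroblasts made up 7.33% and 29.1% of cells. Median UMIs within a class were closer, at 11712 and 13060 in fibroblasts and 2612 and 2648 in vascular endothelial cells. The libraries shared 42 cell barcodes, 29 of them among the cells kept. Classes are named by the marker lists they matched, so a class name stands for cells like that type. Levels below are UMIs summed over the cells of a class, as CPM (the counts scaled to a common class total of 1000000), which sets aside how many cells of a class were caught. A 3′ library counts transcript ends, so CPM of different genes were set side by side without a correction for length. With 1 library per age there was no replicate check and no test between ages: all intervals are 95%, exact, and cover counting error only. A member was called higher or lower where it had at least 20 UMIs over both libraries, the 18-month over 2-month ratio was at least 1.5-fold and the interval of the log2 ratio left out 0.

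Collagen transcripts lay mostly in fibroblasts, which held 66.0% of all collagen UMIs at 18 months and 90.2% at 2 months. Vascular endothelial cells held 15.3% and 3.45%, smooth muscle cells 2.11% and 1.58%, and pericytes, the mural cells of capillaries, 1.91% and 1.15%. These shares rest on the number of cells caught as well as on the level per cell, and the sort and the mixing ratios also set the number of cells. Of the 44 members, 38 had at least 50 UMIs over both libraries. Among classes with at least 10 cells in a library, fibroblasts were the highest in both libraries for the collagen I and III chains, for Col5a1, Col5a2, Col15a1, Col6a2, Col6a3, Col6a6, Col8a1 and Col14a1, and for 3 of the minor collagen IV chains, Col4a3, Col4a4 and Col4a5. This leaves out the 5 epicardial cells of the 18-month library, which are given below. Col4a1 and Col4a2, the chains of the common basement membrane network, were highest in vascular endothelial cells in both libraries. Outside their sources the fibrillar chains were low. B cells, which make no collagen, had 5.05 CPM of Col3a1 at 18 months and 29.7 CPM at 2 months. Such classes differed, with 5.40 CPM and 15.7 CPM in monocytes and 29.3 CPM and 85.7 CPM in NK cells. Free RNA was estimated at 100% of these UMIs in monocytes in both libraries, and at 67.3% and 100% in NK cells.

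**Figure D1:**
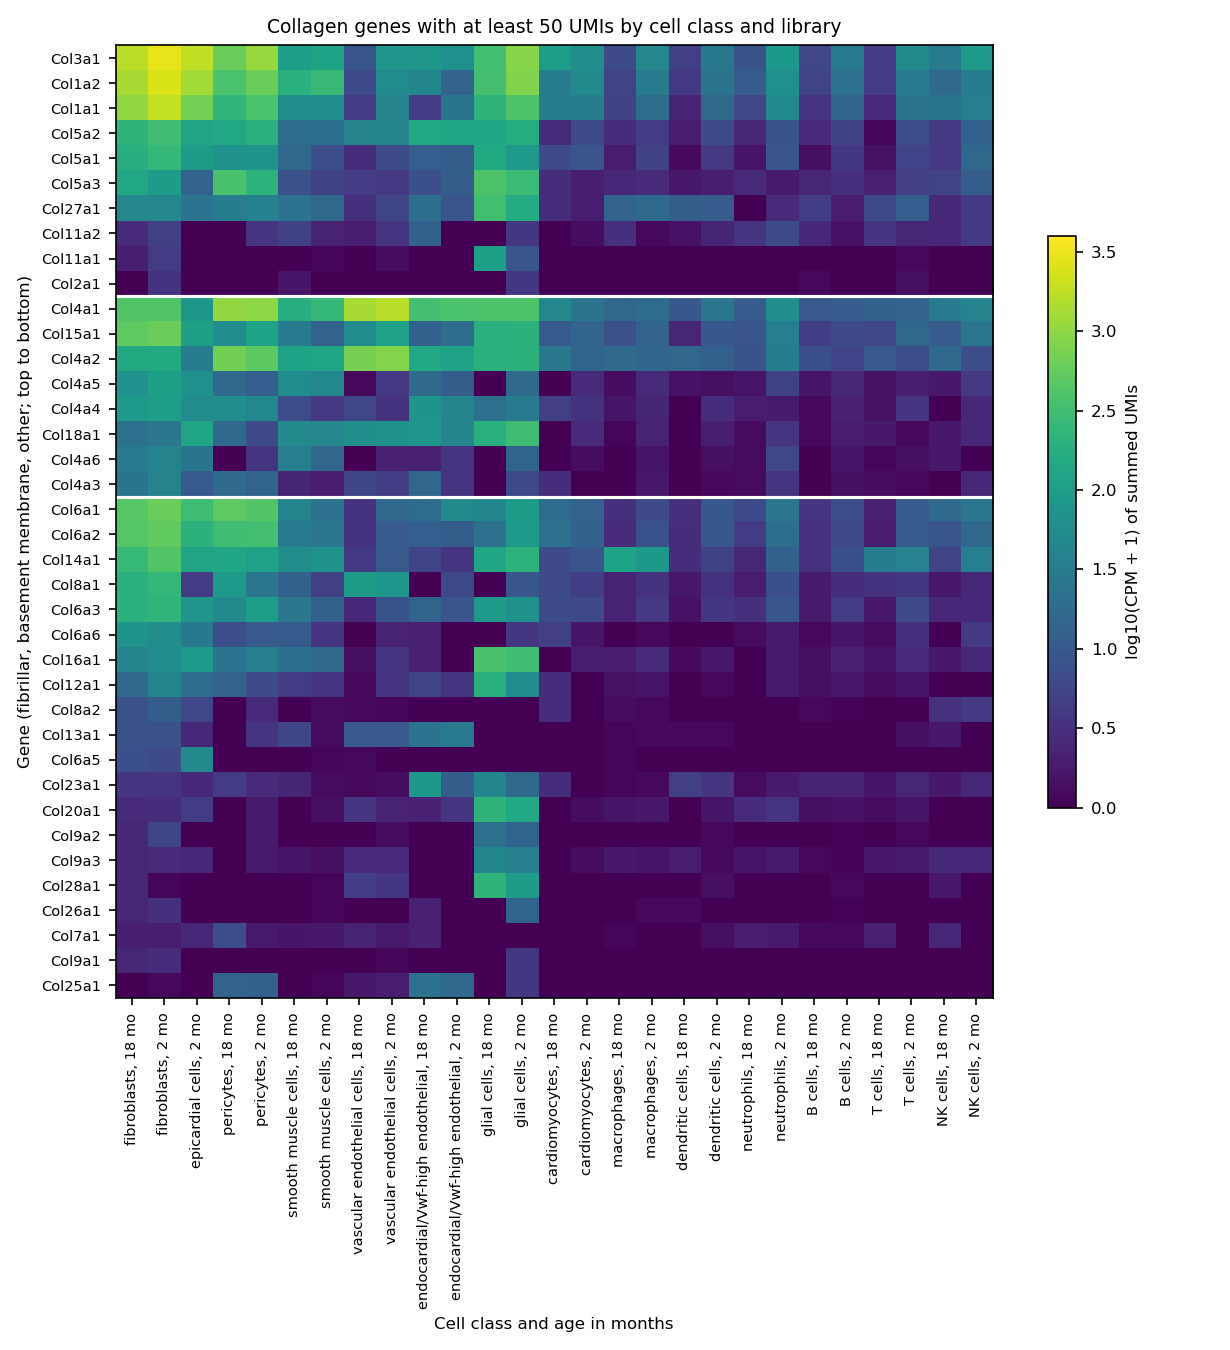
Level of each collagen gene with at least 50 UMIs (rows: fibrillar, basement membrane and other collagens, parted by white lines) in each cell class and library (columns; classes with under 10 cells in a library are not drawn), as log10(CPM + 1). Col1a1, Col1a2, Col3a1, Col5a1 and Col5a2 are brightest in fibroblasts, Col5a3 and Col27a1 in glial cells, and Col4a1 and Col4a2 in vascular endothelial cells.

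In fibroblasts the fibrillar collagens were lower at 18 months. Their summed level was 4613 CPM (4562 to 4664) in the 18-month library and 8020.2 CPM (7993 to 8047) in the 2-month library, a log2 ratio of -0.80 (-0.81 to -0.78). The 3 main chains led the difference. Col3a1, the sole chain of collagen III, was at 1670.2 CPM (1639.7 to 1701) in 18-month and 2913 CPM (2897 to 2929.5) in 2-month fibroblasts. Col1a2, the second chain of collagen I, was at 1358 CPM (1331 to 1386) and 2527 CPM (2512 to 2542), a log2 ratio of -0.90, and Col1a1, its first chain, at 995 CPM (971 to 1018) and 1876 CPM (1863 to 1889), a log2 ratio of -0.92. Counting error leaves the intervals of the libraries well apart for each of these chains. The difference was also seen per cell, as the median fibroblast spent 0.355% of its UMIs on fibrillar collagens at 18 months and 0.579% at 2 months. The cells between the lower and upper quartile lay at 0.234% to 0.538% and at 0.405% to 0.845%, so single cells of the libraries overlapped.

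Collagen V, which is incorporated into collagen I fibres and limits their width, did not move as 1 unit. Col5a2 was at 220.1 CPM in 18-month and 309.6 CPM in 2-month fibroblasts (log2 ratio -0.49, -0.57 to -0.42), and Col5a1 at 183 CPM and 245 CPM (-0.42, -0.51 to -0.34). The third chain Col5a3 ran the other way, with 137 CPM (129 to 146) at 18 months and 94.2 CPM (91.4 to 97.2) at 2 months, a log2 ratio of 0.54 (0.44 to 0.65). None of these chains reached 1.5-fold. Col27a1, a fibrillar chain known mainly from cartilage, was at 45.8 CPM in 18-month and 45.1 CPM in 2-month fibroblasts, and its log2 ratio of 0.02 had an interval of -0.15 to 0.20.

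The basement membrane collagens of fibroblasts differed little in sum, with 1320.0 CPM (1293 to 1348) at 18 months and 1476 CPM (1464 to 1487) at 2 months, a log2 ratio of -0.16 (-0.19 to -0.13). Col15a1, a proteoglycan collagen of the basement membrane zone and the most abundant of the group, was at 512 CPM in 18-month and 591 CPM in 2-month fibroblasts (log2 ratio -0.21). Col4a1 was at 423 CPM (408 to 439) and 418 CPM (412 to 424), and Col4a2 at 154 CPM (145 to 163) and 153 CPM (149 to 157), with log2 ratios of 0.02 and 0.01 and intervals that took in 0. The minor chains were lower. Col4a5 was at 65.7 CPM (59.8 to 72.1) at 18 months and 106 CPM (103 to 109) at 2 months (log2 ratio -0.68), and Col4a3 at 24.3 CPM (20.7 to 28.3) and 40.4 CPM (38.5 to 42.3) (-0.73). These 2 chains passed the rule, though neither did under the authors' cell filter and Col4a5 did not in cells thinned to 1000 UMIs, while Col4a4 with 87.4 CPM and 102 CPM, Col4a6 with 30.9 CPM and 39.6 CPM, and Col18a1, the precursor of endostatin, with 22.1 CPM and 25.8 CPM did not.

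The other collagens summed to 1734 CPM (1703 to 1765) in 18-month and 2214 CPM (2200.4 to 2229) in 2-month fibroblasts, a log2 ratio of -0.35 (-0.38 to -0.33). The FACIT collagens Col14a1 and Col12a1, which bind the surface of collagen I fibrils, were the ones called lower among the well-expressed members. Col14a1 was at 258 CPM (246 to 270.3) at 18 months and 417 CPM (411 to 423) at 2 months, and Col12a1 at 16.5 CPM (13.6 to 19.9) and 40.6 CPM (38.8 to 42.6), with log2 ratios of -0.69 and -1.30. Col16a1, another FACIT, was at 40.6 CPM and 55.2 CPM and was not called. The collagen VI chains stayed within 1.5-fold: Col6a1 was at 467 CPM in 18-month and 612 CPM in 2-month fibroblasts, Col6a2 at 449.6 CPM and 527 CPM, Col6a3 at 197 CPM and 222 CPM, and Col6a6, which can stand in for the third chain, at 71.0 CPM and 59.9 CPM. Of the network chains, Col8a1 was at 200.1 CPM and 239 CPM and was not called, and the scarce Col8a2 was called lower at 6.73 CPM and 10.5 CPM (46 and 452 UMIs).

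**Figure D2:**
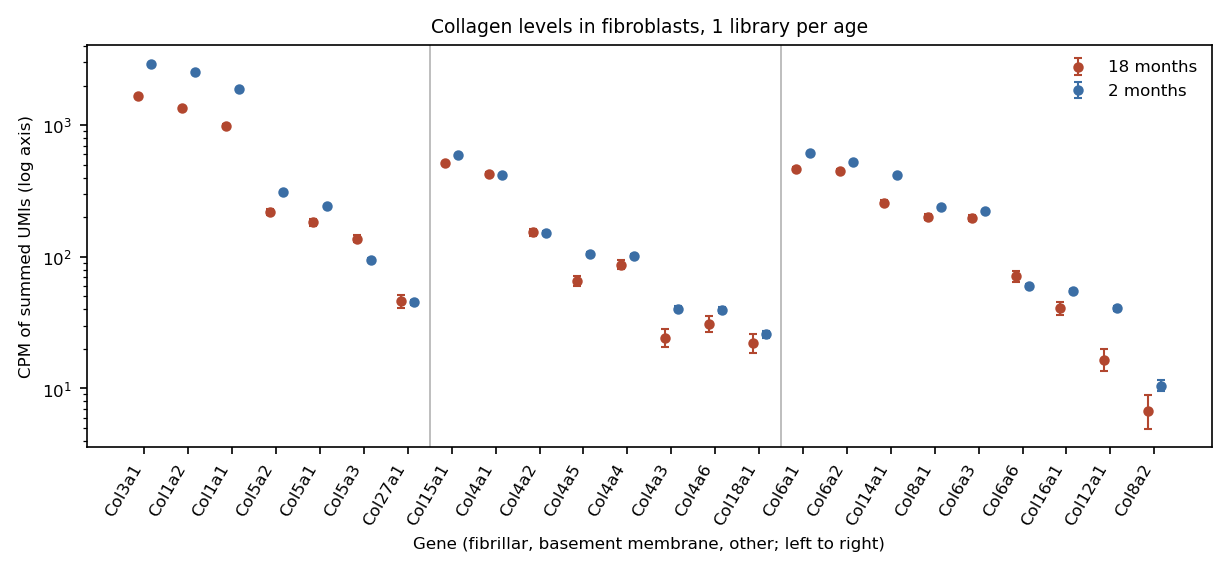
CPM of summed UMIs in fibroblasts for the 24 members named there, with 18 months left of 2 months and exact 95% Poisson intervals (log axis; vertical lines part fibrillar, basement membrane and other collagens). Col3a1, Col1a2 and Col1a1 lie lower at 18 months, Col4a1 and Col4a2 overlap, and Col5a3 lies higher.

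In all, 13 of the 39 members tested in fibroblasts were lower at 18 months (6 fibrillar, 2 basement membrane and 5 other), against 3.02% of all 14180 genes tested there. None was higher, against 6.77% of all genes. The median log2 ratio of the tested members was -0.36, and that of all genes 0.04. At a 2-fold limit 6 members were lower (1.71% of all genes), and among members with at least 50 UMIs 12 of 35 (3.1% of all such genes). Among the 13 were 5 scarce chains known mainly from cartilage or muscle junctions: Col11a1 (1.02 CPM at 18 months and 3.30 CPM at 2 months), Col11a2 (1.76 and 3.81 CPM), Col9a2 (1.46 and 4.60 CPM), Col22a1 (1 and 41 UMIs) and Col2a1 (0 and 100 UMIs). Few cells carried them, and 5 cells held 94% of the Col2a1 UMIs of the 2-month library. The 22 fibroblast markers, none of them a collagen, summed to 50949 CPM in 18-month and 59663 CPM in 2-month fibroblasts, and 13 cardiomyocyte markers summed to 88.6 CPM and 248 CPM, with none at 0 in either library. The part of either list in the collagen difference was not tested. Free RNA was estimated at 0.824% of the fibrillar UMIs of fibroblasts at 18 months and 2.66% at 2 months.

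Cells with Xist UMIs and no Y-linked UMI, and cells with Y-linked UMIs and no Xist, were found in both libraries and gave different fibrillar ratios. In fibroblasts with Xist only, the fibrillar sum was 4451 CPM at 18 months (191 cells) and 5811 CPM at 2 months (981 cells), a log2 ratio of -0.38, which falls short of 1.5-fold. In fibroblasts with Y-linked UMIs only it was 4893 CPM (275 cells) and 9180.3 CPM (1648 cells), a log2 ratio of -0.91. At 18 months the levels of both kinds of cell were close, and at 2 months they were far apart. The same split held for Col1a1, at 975 CPM in 18-month and 1290.3 CPM in 2-month fibroblasts with Xist only, and at 1052 CPM and 2179.7 CPM in those with Y-linked UMIs only. Col4a3 was at 31.1 CPM and 28.0 CPM in fibroblasts with Xist only, a log2 ratio of 0.15 that was not called. In those with Y-linked UMIs only it was at 20.8 CPM and 48.4 CPM. Members called lower numbered 3 with Xist only, namely Col12a1, Col9a2 and Col2a1, and 13 with Y-linked UMIs only. The share of all genes lower was 2.42% with Xist only and 4.25% with Y-linked UMIs only, and the share higher 7.19% and 4.42%. The single member called higher was Col5a3 with Xist only (375 and 1157 UMIs) and Col6a5 with Y-linked UMIs only (38 and 172 UMIs). With no label that ties cells to mice, sex and single animals cannot be told apart.

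Most fibroblasts carried no clear hashtag, namely 546 of 573 at 18 months and 3117 of 3178 at 2 months. Among macrophages 60 of 665 and 41 of 557 carried none. Among those that did, 17 with Hashtag11 and 10 with Hashtag12 from the 18-month library had fibrillar sums of 4805 CPM and 3849 CPM, and 37 with Hashtag09 and 24 with Hashtag10 from the 2-month library had 8924 CPM and 7227 CPM. Both 18-month hashtags lay below both 2-month hashtags. Fibroblasts without a called hashtag had 4625 CPM and 8012 CPM. The tagged fibroblasts are few and may not stand for the class, and a hashtag is not known to be a replicate. Col5a3 was at 188 CPM (139 to 247) and 89.2 CPM (49.9 to 147) with the 18-month hashtags, and at 55.8 CPM (40.6 to 74.9) and 31.8 CPM (17.4 to 53.4) with the 2-month hashtags. These rest on 50, 15, 44 and 14 UMIs, and the interval of Hashtag12 overlaps those of both 2-month hashtags. By the rule for ratios Col5a3 was called higher for Hashtag11 over either 2-month hashtag and for Hashtag12 over Hashtag10. It was not called for Hashtag12 over Hashtag09. Of all genes 7.54% and 7.56% were higher for Hashtag11 over Hashtag09 and Hashtag10, and 5.04% for Hashtag12 over Hashtag10. Basement membrane sums were 1228 CPM and 1101 CPM at 18 months and 1299 CPM and 1301 CPM at 2 months.

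Fibroblasts were clustered again without any collagen gene, which gave 10 subclusters. The biggest, subcluster 0, was Tcf21 interstitial fibroblast-like by its markers, with 289 18-month and 1253 2-month cells. Subcluster 1 had 74 and 605. It carried 7 markers of Wif1 and Comp fibroblasts, but 4 globin genes of red blood cells stood among its 10 leading genes, so it is called by its number. These globins summed to 76.9 CPM at 18 months and 2445 CPM at 2 months there, and their part in its values was not tested. Subcluster 2, led by the atrial genes Nppa and Myl7 and left unnamed, had 110 and 458. The remaining subclusters had under 50 cells at 18 months, so only their levels are given. Subclusters 3 (22 and 353 cells) and 4 (26 and 194 cells) carried markers of Pi16 adventitial fibroblasts, though none of these markers was among the 10 leading genes of subcluster 3. Subcluster 5 (28 and 134 cells) also carried endothelial genes, subclusters 7 and 9 carried B or T cell genes, and subcluster 8 had 1 and 16 cells.

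Each of the subclusters with enough cells had less fibrillar collagen at 18 months. In subcluster 0 the fibrillar sum was 4529.8 CPM (4458 to 4603) at 18 months and 7238 CPM (7196 to 7280.5) at 2 months, a log2 ratio of -0.68. In subcluster 1 it was 3766 CPM and 5688 CPM (-0.60), and in subcluster 2 it was 3874 CPM and 6097 CPM (-0.65). Within subcluster 0, 6 of 31 members tested were lower, against 2.71% of all genes, and none was higher, against 5.15%. They were Col3a1, Col1a2, Col1a1, Col14a1, Col4a3 and Col8a2, with log2 ratios of -0.75, -0.69, -0.77, -0.68, -1.13 and -1.27. Subcluster 1 had 7 of 33 members lower (3.05% of all genes), among them Col3a1 at 1195 CPM at 18 months and 1824 CPM at 2 months, Col1a2 at 1048 and 1816 CPM, Col4a5 at 47.8 and 86.5 CPM and Col8a1 at 49.9 and 91.8 CPM. Its single member called higher (4.56% of all genes) was Col5a3, at 41.6 CPM at 18 months and 27.7 CPM at 2 months. In subcluster 2, 5 of 26 members were lower (3.13% of all genes), namely Col3a1, Col1a2, Col5a2, Col8a1 and Col16a1, and Col4a6 was higher (4.18% of all genes) with 28 and 93 UMIs.

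Subclusters 3 and 4 went different ways. The fibrillar sum was 7510.1 CPM (7241 to 7786) at 18 months and 6717 CPM (6648 to 6787) at 2 months in subcluster 3, and 6018 CPM (5752 to 6293) and 7716 CPM (7622 to 7810.4) in subcluster 4. With 22 and 26 cells at 18 months these values rest on few cells, and single cells vary far more than counting error. Basement membrane sums were 1702 CPM and 1985 CPM in subcluster 3 and 676 CPM and 1219 CPM in subcluster 4.

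The subclusters differed in which chains they used, and did so in both libraries. Col5a3 was at 199 CPM at 18 months and 165 CPM at 2 months in subcluster 0, against 41.6 and 27.7 CPM in subcluster 1. Its log2 ratio was 0.27 in subcluster 0, 0.59 in subcluster 1 and 0.53 in subcluster 2, against 0.54 over all fibroblasts. Subcluster 0 made up 50.4% of 18-month and 39.4% of 2-month fibroblasts, and the ratio over all fibroblasts does not adjust for this. Col15a1 was highest in subcluster 3, with 899 CPM and 1029 CPM, and reached 198 CPM and 245 CPM in subcluster 1. Col4a1 was at 528 CPM and 598 CPM in subcluster 0 and at 170.4 CPM and 176 CPM in subcluster 1. Col12a1 was at 42.6 CPM and 61.1 CPM in subcluster 1, against 6.28 CPM and 8.73 CPM in subcluster 0. Col6a5, a rare collagen VI chain, was at 128 CPM and 26.7 CPM in subcluster 4 (41 and 90 UMIs, the 41 in 5 cells) and at 0.598 CPM and 1.86 CPM in subcluster 0.

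**Figure D3:**
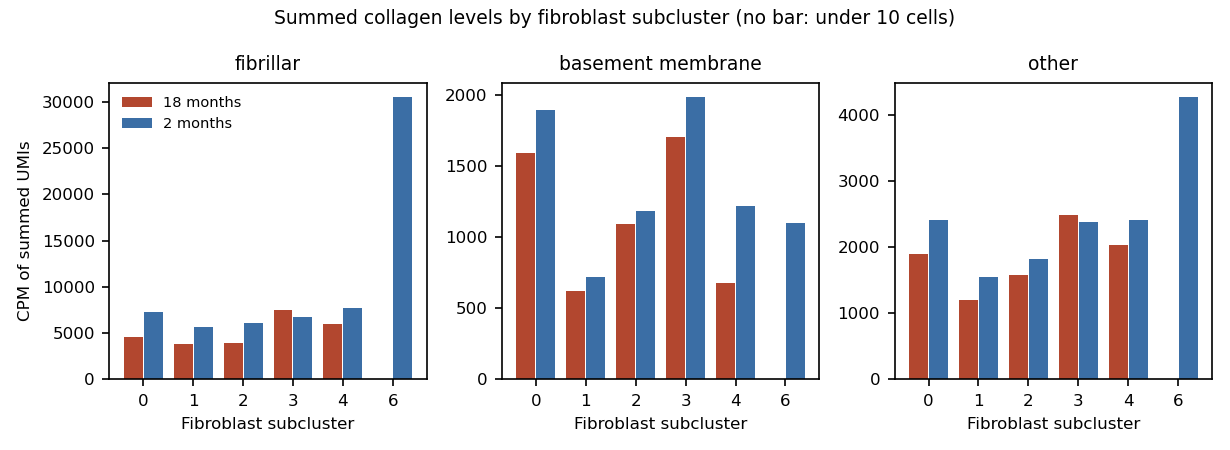
Summed CPM of fibrillar, basement membrane and other collagens in fibroblast subclusters 0 to 4 and 6, with 18 months left of 2 months (no bar for under 10 cells). Fibrillar bars are shorter at 18 months in subclusters 0, 1, 2 and 4, and the 2-month bar of subcluster 6 reaches 30551 CPM.

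A small subcluster held 0.768% of the fibrillar UMIs of 18-month fibroblasts and 16.7% of those of 2-month fibroblasts. Subcluster 6 was led by Sfrp4, a secreted Wnt antagonist, and had the collagen cross-linking enzyme Lox among its 10 leading genes. It carried 3 markers of the Wif1 and Comp fibroblast list, Cilp, Fmod and Sfrp4, but neither Wif1 nor Comp was among them. It had 2 cells of the 18-month and 119 of the 2-month library. Its 2-month cells had 10922 CPM of Col3a1, 10442 CPM of Col1a2 and 8198 CPM of Col1a1, a fibrillar sum of 30551 CPM. They also had 348 CPM of Col12a1, 1296 CPM of Col14a1, 374 CPM of Col4a5 and 60.5 CPM of Col6a5. Of these 119 cells, 95 had Y-linked UMIs without Xist and 1 had Xist without Y-linked UMIs. Without subcluster 6 the fibrillar sum of fibroblasts was 4601 CPM at 18 months and 6989 CPM at 2 months, a log2 ratio of -0.60 in place of -0.80. With Y-linked UMIs only and without this subcluster the sums were 4886 CPM and 7582 CPM (-0.63). Without it 11 of 39 members were lower, against 2.66% of all genes, and 1 was higher, against 6.74%. Col14a1 and Col4a5 no longer passed, with log2 ratios of -0.56 and -0.53, and the member higher was Col6a5 with 43 and 126 UMIs. Col12a1 still passed, but at 14.3 CPM at 18 months and 26.6 CPM at 2 months. Within subclusters 0, 1 and 2 Col12a1 was not called, with log2 ratios of -0.47, -0.52 and -0.68. Over all 18-month fibroblasts the 45 Col6a5 UMIs lay in 7 cells, with 95.6% of them in 5 cells.

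**Figure D4:**
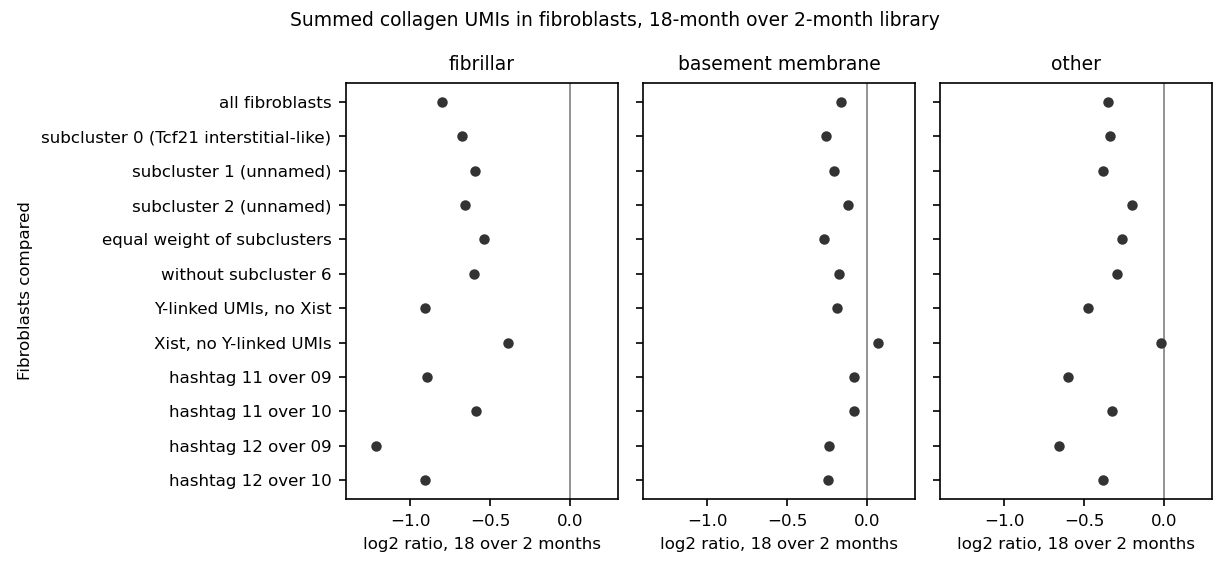
Log2 ratio, 18-month over 2-month library, of summed fibrillar, basement membrane and other collagen CPM for all fibroblasts and for subsets of them; each point is 1 ratio, and the line marks 0. Fibrillar ratios lie between -1.21 and -0.38 in every subset drawn, and basement membrane ratios lie closer to 0.

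Proportions of partner chains describe the same ratios within a trimer. Col1a1 made up 42.3% (41.5 to 43.0) of the UMIs of Col1a1 and Col1a2 at 18 months and 42.6% (42.4 to 42.8) at 2 months, although both chains were lower at 18 months. Col4a1 made up 73.3% (71.9 to 74.7) and 73.2% (72.7 to 73.8) of the UMIs of Col4a1 and Col4a2. Col6a3 took 30.5% and 29.7% of the UMIs of Col6a3 and Col6a2. For 2 pairs the intervals of the libraries lay apart. Col4a3 took 21.8% (18.9 to 24.9) at 18 months and 28.3% (27.2 to 29.4) at 2 months of the UMIs of Col4a3 and Col4a4. Under the authors' cell filter these were 20.2% and 23.0%. Col6a1 took 51.0% (49.7 to 52.2) and 53.8% (53.3 to 54.2) of those of Col6a1 and Col6a2. Col4a5 took 68.0% (64.3 to 71.6) and 72.7% (71.6 to 73.8) of the UMIs of Col4a5 and Col4a6, with intervals that just touched. Touching intervals do not show that a proportion stayed the same. These proportions are of captured transcript ends, not of protein.

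Genes that process collagen were mostly close between the libraries in fibroblasts. Of 40 genes for hydroxylation, folding, trimming, cross-linking and fibril organisation, 37 had enough UMIs, and 4 were lower, none was higher and 33 stayed within the limits, with a median log2 ratio of -0.11. Among all genes 3.02% were lower and 6.77% higher. In vascular endothelial cells 12 of 31 tested genes of the list were lower, against 3.64% of all genes, and in macrophages 11 of 24, against 4.56%. Free RNA was not estimated for the genes of this list, and its part in these counts was not tested. Fibroblast markers summed to 323 CPM in 18-month and 1469 CPM in 2-month endothelial cells. In fibroblasts Lox, which starts the cross-links between collagen molecules, was at 27.1 CPM at 18 months and 75.4 CPM at 2 months (log2 ratio -1.48). Sparc, a secreted collagen-binding protein, was at 1933 CPM and 3885 CPM (-1.01). Fmod, a fibril-binding proteoglycan, was at 24.5 CPM and 66.4 CPM (-1.44), and Pcolce2, an enhancer of procollagen trimming, at 402 CPM and 618 CPM (-0.62). Lox was among the leading genes of subcluster 6, and Fmod is also on the marker list for Wif1 and Comp fibroblasts. Of 11 collagen receptor genes 10 were tested, and the single one called was Lair1, an inhibitory leukocyte receptor, which was higher with 14 and 25 UMIs, a count of 1 of 10 that is near the 6.77% of all genes.

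In vascular endothelial cells the basement membrane chains were the main collagens, with 2190.0 CPM (2149 to 2231) at 18 months and 2696 CPM (2656 to 2737) at 2 months, a log2 ratio of -0.30 (-0.33 to -0.27). Col4a1 was at 1340.0 CPM (1308 to 1372) in 18-month and 1639 CPM (1608 to 1671) in 2-month cells, and Col4a2 at 725 CPM (702 to 749) and 864 CPM (841 to 887). The sum was 2369 CPM and 2612 CPM in cells with Xist only, and 2032 CPM and 2769 CPM in cells with Y-linked UMIs only. Neither chain reached 1.5-fold, and Col4a1 made up 64.9% and 65.5% of their joint UMIs. Col15a1 was called lower, at 54.0 CPM (47.8 to 60.7) and 115 CPM (107 to 124), a log2 ratio of -1.09 (-1.30 to -0.89), with 8.49% and 16.4% of these UMIs estimated as free RNA. Col18a1 was at 61.2 CPM and 68.5 CPM, Col5a2 at 40.0 CPM and 43.1 CPM, and Col8a1, a short-chain collagen of vessel walls, at 96.3 CPM and 76.9 CPM, and none of these was called.

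Of 24 members tested in vascular endothelial cells, 11 were lower, against 3.64% of all genes, and Col4a4 was higher with 25 and 15 UMIs (4.64% of all genes). For 9 of the 11 the free RNA estimate took in over 50% of the UMIs in both libraries, and the exceptions were Col15a1 and the scarce Col27a1. Col3a1, for example, was at 8.27 CPM at 18 months and 74.5 CPM at 2 months. The 22 fibroblast markers moved with it, summing to 323 CPM in 18-month and 1469 CPM in 2-month endothelial cells, with 1 marker at 0 at 18 months and none at 2 months, and 13 cardiomyocyte markers summed to 215 CPM and 652 CPM. Their part in the count was not tested.

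A smaller endothelial class named by endocardial and Vwf-high markers, which also had the lymphatic genes Ccl21a and Mmrn1 among its leading genes, had 156 cells of the 18-month and 51 of the 2-month library. Col4a1 was at 336 CPM there at 18 months and 379.7 CPM at 2 months, Col4a2 at 136 CPM and 116 CPM, Col5a2 at 137 CPM and 129 CPM, and Col4a4 at 73.2 CPM and 42.2 CPM. The transmembrane collagen Col23a1 stood out, with 82.0 CPM (64.4 to 103) at 18 months and 10.5 CPM (2.87 to 27.0) at 2 months, from 74 and 4 UMIs. Of the other transmembrane chains, Col25a1 (21.1 CPM and 15.8 CPM) and Col13a1 (22.2 CPM and 29.0 CPM) were higher in these cells than in any other whole class in both libraries. They rest on few UMIs, with 19 (in 16 cells) and 6 (in 4 cells) for Col25a1, and 20 (in 16 cells) and 11 (in 2 cells) for Col13a1. Fibroblast subcluster 1 had 29.1 CPM and 20.4 CPM of Col13a1. Of 12 members tested 3 were higher (Col23a1, Col18a1 and Col1a2), against 7.95% of all genes, and Col6a1 was lower, against 9.86%. Among the members called, Col1a2 had 39 and 5 UMIs and Col6a1 had 16 and 19.

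Smooth muscle cells had 473 CPM (439 to 509.6) of basement membrane collagens at 18 months and 503 CPM (487 to 519) at 2 months. The interval of the log2 ratio took in 0 (-0.09, -0.20 to 0.03), and the sum ran opposite ways in cells with Xist only (538 CPM and 469 CPM) and in cells with Y-linked UMIs only (475 CPM and 572 CPM). Col1a2 was their most abundant chain at 18 months, with 199 CPM and 267 CPM, and was far ahead of Col1a1, which made up 23.7% (19.5 to 28.2) and 18.1% (16.6 to 19.7) of the collagen I UMIs, against 42.3% and 42.6% in fibroblasts. Free RNA was estimated at 12.5% and 74.8% of these Col1a1 UMIs, and without a small cluster of 10 and 20 cells Col1a1 made up 12.9% (8.95 to 17.8) and 7.26% (6.07 to 8.59). Col4a1 was at 176 CPM (155 to 199) and 247 CPM (236 to 258), Col4a2 at 122 CPM and 133 CPM, and Col14a1 at 59.1 CPM and 67.8 CPM. Col4a5 was at 55.7 CPM and 46.6 CPM, Col18a1 at 49.0 CPM and 44.7 CPM, Col27a1 at 22.8 CPM and 15.2 CPM, Col16a1 at 20.1 CPM and 16.4 CPM, and Col5a2 at 18.1 CPM and 19.4 CPM. Col4a6, the partner of Col4a5 in smooth muscle basement membranes, was higher at 18 months, with 33.6 CPM (24.9 to 44.3) and 14.4 CPM (11.8 to 17.3), a log2 ratio of 1.22 (0.71 to 1.72). Col6a3 was higher too, with 26.2 CPM (18.6 to 35.8) and 11.9 CPM (9.58 to 14.6).

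In smooth muscle cells 7 of 22 members tested were higher at 18 months, against 6.21% of all genes, and none was lower, against 2.1%. Beside Col4a6 and Col6a3 they were Col5a1, Col15a1, Col6a1, Col6a6 and Col8a1. Fibroblast markers moved with them: all 22 were found in both libraries and summed to 4061 CPM in 18-month and 2168 CPM in 2-month smooth muscle cells. A small smooth muscle cluster of 10 and 20 cells held much of that. Without it 5 of 20 members were higher, against 4.86% of all genes, and 1 was lower, against 2.18%. Col4a6 was then at 25.2 CPM and 10.8 CPM (log2 ratio 1.21), Col6a3 at 14.8 CPM and 5.69 CPM (1.38), Col15a1 at 28.1 CPM and 9.08 CPM (1.63) and Col8a1 at 12.6 CPM and 2.17 CPM (2.54), Col27a1 was higher as well, while Col5a2 was lower (-1.36). The remaining part of the fibroblast markers in these values was not tested. Over all smooth muscle cells, 5 cells held 100% of the 18 Col8a1 UMIs and 88.9% of the 45 Col15a1 UMIs at 18 months. Free RNA was estimated at 17.2% of the Col8a1 and 15.1% of the Col15a1 UMIs at 18 months, and at 100% of both at 2 months.

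Pericytes, of which there were 53 at 18 months and 179 at 2 months, had 1877 CPM (1728 to 2035) and 1655 CPM (1583 to 1729.7) of basement membrane collagens, a log2 ratio of 0.18 (0.05 to 0.31). Col4a1 was at 1027 CPM (917 to 1145) at 18 months and 964 CPM (909 to 1021) at 2 months, and Col4a2 at 689.7 CPM (601 to 788) and 492 CPM (453 to 533). Col4a1 made up 59.8% (55.5 to 64.0) and 66.2% (64.0 to 68.4) of their joint UMIs. The collagen VI chains were well expressed, with 504 CPM and 436 CPM of Col6a1 and 308 CPM and 338 CPM of Col6a2. Col5a3 was higher at 18 months, with 366 CPM (302 to 439) and 210.5 CPM (185 to 238), a log2 ratio of 0.80, which turned to -0.22 when every cell was thinned to 1000 UMIs. Col8a1 was higher with 27 and 30 UMIs. Col5a2 with 141 and 189 CPM, Col14a1 with 135 and 113 CPM, Col5a1 with 67.4 and 72.4 CPM, Col4a4 with 57.7 and 46.6 CPM, and Col27a1 with 32.1 and 37.4 CPM were not called.

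The collagen I and III chains of pericytes were lower at 18 months, with 603 CPM (520.0 to 696) of Col3a1 at 18 months and 1119.7 CPM (1061 to 1181) at 2 months, 382 CPM and 611 CPM of Col1a2, and 231 CPM and 380.2 CPM of Col1a1. Col15a1 at 54.5 CPM and 121 CPM and Col6a3 at 48.1 CPM and 101 CPM were lower as well. In all 5 of 18 members were lower, against 3.12% of all genes, and 2 were higher, against 3.75%. The 22 fibroblast markers summed to 3359 CPM in 18-month and 7558 CPM in 2-month pericytes, with 4 at 0 at 18 months and 1 at 2 months, and the 13 cardiomyocyte markers to 48.1 CPM and 259 CPM, with 6 at 0 at 18 months. Their part in these values was not tested. Free RNA was estimated at 7.24% of all pericyte UMIs at 18 months and 10.4% at 2 months. The levels and calls here are given without subtracting it. Under the 11 alternative ways of processing, the log2 ratio ran from -1.23 to -0.42 for Col3a1 and from -0.94 to -0.28 for Col1a2. For Col1a1 it ran from -0.91 to 0.038. A few cells weighed heavily, as 5 of the 53 cells held 56.9% of the Col3a1 UMIs and 32.5% of the Col4a1 UMIs at 18 months.

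**Figure D5:**
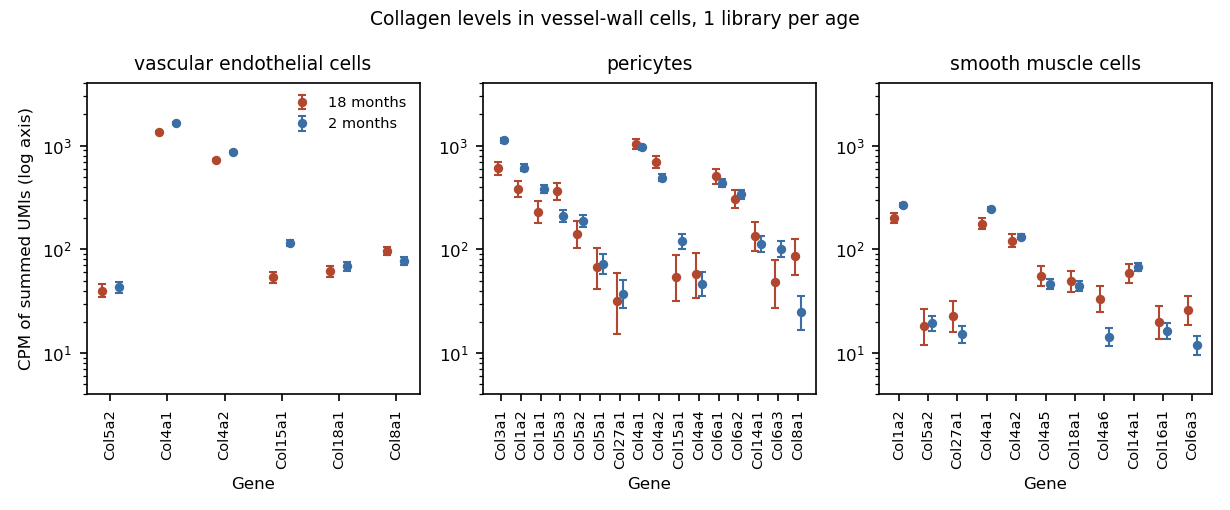
CPM of summed UMIs of the members named in vascular endothelial cells, pericytes and smooth muscle cells, with 18 months left of 2 months and exact 95% Poisson intervals (log axis). Col15a1 lies lower at 18 months in endothelial cells and pericytes, and Col4a6 and Col6a3 lie higher at 18 months in smooth muscle cells.

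Among leukocytes, macrophages carried Col14a1 beyond free RNA, with 119.8 CPM (111 to 129) at 18 months and 80.9 CPM (73.3 to 89.2) at 2 months, a log2 ratio of 0.57 (0.39 to 0.74). Free RNA was estimated at 2.41% and 13.8% of these UMIs, and B cells had 2.22 CPM and 6.60 CPM. Both macrophage clusters had it, with 139 CPM and 97.4 CPM in one and 76.4 CPM and 72.1 CPM in the other, while their Col1a1 reached 5.29 CPM and 14.2 CPM, and 1.10 CPM and 26.6 CPM. Among T cells, 1 cluster had 50.4 CPM and 55.7 CPM of Col14a1, and the same cluster carried 18476 CPM and 19078 CPM of macrophage markers. Col27a1 in macrophages was at 13.1 CPM and 16.0 CPM. Of 14 members tested in macrophages 7 were lower, against 4.56% of all genes, all with over 50% of their UMIs estimated as free RNA in both libraries, and none was higher, against 3.99%.

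Glial cells, with 14 cells at 18 months and 60 cells at 2 months, were the highest class of at least 10 cells for several rarer chains, given as levels alone. Col16a1 was at 367 CPM (214 to 588) at 18 months and 312 CPM (257 to 375) at 2 months, Col5a3 at 389 CPM and 287 CPM, and Col27a1 at 324 CPM and 161 CPM. Col20a1 at 216 CPM and 139.6 CPM and Col28a1, known from Schwann cells, at 216 CPM and 93.0 CPM were at under 4 CPM in fibroblasts and in vascular endothelial cells. Col18a1 at 194.5 CPM and 304 CPM, Col12a1 at 194.5 CPM and 54.7 CPM, and Col11a1 at 108 CPM and 8.21 CPM, from 5 and 3 UMIs, were also highest there in both libraries. Epicardial cells, 5 at 18 months and 47 at 2 months, had 1828 CPM of Col3a1, 1256 CPM of Col1a2 and 47.9 CPM of Col6a5 at 2 months. The 5 cells at 18 months had more than fibroblasts of Col3a1 (4193 CPM), Col1a2 (1468 CPM), Col1a1 (1355 CPM), Col6a2 (1113 CPM) and Col6a6 (226 CPM). They also had more of Col5a2, Col4a3 and Col4a4, and less of Col5a1, Col15a1, Col6a3, Col8a1, Col14a1 and Col4a5. Their Col18a1, at 274 CPM from 17 UMIs, was above that of glial cells.

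The scarce members complete the family. In fibroblasts Col6a5 at 6.59 CPM at 18 months and 5.58 CPM at 2 months, Col13a1 at 6.88 CPM and 6.72 CPM, Col23a1 at 2.49 CPM and 2.65 CPM, Col20a1, Col26a1, Col9a1, Col9a3 and Col7a1 were tested and not called. Outside fibroblasts, Col9a3 reached 35.6 CPM and Col9a2 and Col26a1 each 13.7 CPM in 2-month glial cells, and Col11a2 reached 25.9 CPM (4 UMIs) in 18-month mast cells and basophils. Of the 6 members with under 50 UMIs over all cells of both libraries, Col22a1 is given above, Col24a1 had 3 and 39 UMIs, Col17a1 had 9 and 31, Col19a1 had 10 and 8, Col6a4 had 1 and 8, and Col10a1 had 2 and 4. Of the 18 UMIs of Col19a1, 8 and 5 were in smooth muscle cells.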

How the data were processed

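Single-cell 3′ RNA libraries of mouse heart non-cardiomyocytes were analysed, 1 from 18-month and 1 from 2-month mice. The deposited matrices hold raw UMI counts per gene and cell barcode, per the file headers. The submitters' processing notes name Cell Ranger 3.1.0 and the builds mm10 and GRCm38. Cells under 200 genes or over 15% mitochondrial UMIs were dropped, and Scrublet doublets (expected share 0.08) were left out. Cells were clustered on 2000 variable genes without collagens, 30 principal components, 15 neighbours and Leiden resolution 1 (0.25 within fibroblasts) with scanpy 1.11.5 and leidenalg 0.10.2, and classes were named from marker lists. The limits for naming clusters and the resolution within fibroblasts were chosen after seeing the data.

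UMIs were summed per class and library and divided by the class total. CPM have exact Poisson intervals and ratios exact conditional binomial intervals (scipy 1.17.1). Ratios were made for classes with at least 50 cells in each library. Free RNA in a class was estimated from other lineages' markers, by the median of each marker's share in the class over its share in the library, and a hashtag was called at 50 UMIs and 90% of hashtag UMIs. Members were named in a class with at least 50 UMIs over both libraries, at least 10 CPM in 1 library and under 50% free RNA in each. Shares have exact Clopper-Pearson intervals. The procedure was tried on simulated counts with counting error alone, so this cannot show how calls fare with variation between cells or libraries. Of 2-fold changes it recovered 84% in fibroblasts, 91% in vascular endothelial cells and 57% in pericytes. Members and lists were chosen with earlier results of these data known. Alternatives covered cell filters, doublets, depth, weighting, scaling, free RNA, clustering, hashtags, sex-linked genes and subtype make-up.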

Additional observations from a re-analysis of the deposited data

Results flagged for a closer look

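Col6a3, the chain that extends the collagen VI filament, was called in opposite directions in the 2 kinds of mural cell. In smooth muscle cells its log2 ratio, 18-month over 2-month library, was 1.14 (39 and 91 UMIs), and in pericytes it was -1.06 (15 and 121 UMIs). The difference between these ratios was not tested, since each age has 1 library. Fibroblast markers moved the same way as Col6a3 in both classes, with 4061 CPM at 18 months and 2168 CPM at 2 months in smooth muscle cells, and 3359 CPM and 7558 CPM in pericytes, and their part in the result was not tested.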

How the results depend on the processing

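Values are log2 ratios, 18-month over 2-month library. The fibrillar sum of fibroblasts (-0.80) stayed negative under all 19 alternatives. It was -0.73 under the authors' cell filter, -0.86 with TMM scaling, -0.77 with free RNA subtracted, -0.54 with subclusters weighted equally, -0.38 with Xist only and -0.91 with Y-linked UMIs only. For Hashtag11 over Hashtag09 and over Hashtag10 it was -0.89 and -0.59, and for Hashtag12 over them -1.21 and -0.91. Alternatives chosen after seeing the data gave -0.78 without subclusters 5, 7 and 9, -0.60 without subcluster 6, -0.63 without it and with Y-linked UMIs only, and -0.84 without the 5 cells with the most UMIs. The basement membrane sum of fibroblasts (-0.16) was -0.13 under the authors' filter, -0.21 with thinned cells, -0.23 with TMM, -0.081 and -0.084 for Hashtag11 over Hashtag09 and Hashtag10, -0.24 for Hashtag12 over either, -0.27 with equal weight and -0.21 without subcluster 6 and with Y-linked UMIs only. It turned to 0.066 with Xist only. The other collagens (-0.35) were at -0.31 under the authors' filter, -0.42 with TMM, -0.60, -0.32 and -0.66 for Hashtag11 over Hashtag09, Hashtag11 over Hashtag10 and Hashtag12 over Hashtag09, -0.017 with Xist only, -0.48 with Y-linked UMIs only and -0.26 with equal weight. They were at -0.32 without subclusters 5, 7 and 9, -0.29 without subcluster 6, -0.40 without it and with Y-linked UMIs only, and -0.39 without 5 cells. The count of members lower in fibroblasts (13) was 6 at 2-fold, 8 under the authors' filter, 7 with thinned cells, 7 for Hashtag11 over Hashtag10, 5 for Hashtag12 over Hashtag10 and 3 with Xist only, where 1.71%, 2.76%, 2.51%, 4.92%, 4.65% and 2.42% of all genes were lower. Col5a3 was called higher under the authors' filter and with Xist only. It was also called higher for Hashtag11 over Hashtag09 and Hashtag10 and for Hashtag12 over Hashtag10, but not for Hashtag12 over Hashtag09.

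The endothelial basement membrane sum (-0.30) was -0.22 at resolution 0.5, -0.15, 0.019 and -0.13 for Hashtag11 over Hashtag09, Hashtag11 over Hashtag10 and Hashtag12 over Hashtag10, -0.14 with Xist only, -0.45 with Y-linked UMIs only and, chosen after seeing the data, -0.23 with clusters 5 and 15 counted in. In smooth muscle cells (-0.09) it was 0.048 under the authors' filter, -0.34 with thinned cells, 0.20 with Xist only, -0.27 with Y-linked UMIs only and -0.24 without 5 cells. In pericytes (0.18) it was -0.041 with thinned cells, -0.14 at resolution 0.5, 0.036 with collagens in the clustering, 0.49 with Xist only, -0.11 with Y-linked UMIs only and 0.00638 without 5 cells. Among members called over all cells, those that reversed were Col4a3 (0.15, Xist only), Col4a5 (0.14, Hashtag12 over Hashtag09) and Col8a2 (0.23 and 1.39, Hashtag12 over Hashtag09 and Hashtag10) in fibroblasts, Col5a3 (-0.22, thinned) and Col1a1 (0.038, Xist only) in pericytes, and Col27a1 (0.49, authors' filter) in T cells. These reversals are of sign alone and are given without intervals. Members not called over all cells changed sign more often, as Col6a3 in fibroblasts (-0.60 to 0.70), Col8a1 in fibroblasts (-1.46 to 0.45) and Col14a1 in pericytes (-3.09 to 0.71). For other values of single members, 662 moved little and 313 moved. The causes were not tested. Hashtag ratios in mural cells and chain shares in thinned cells were not run. No paired analysis was possible because each age has 1 library. Scarce members, pericytes (53 cells at 18 months) and endocardial and Vwf-high cells (51 cells at 2 months) are limited by few UMIs or few cells.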
